A study of Mus musculus with 18 samples.

Results

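The erbB2-positive fraction sorted from a 1:50 co-culture of Comma-D and MMTV-neu cells was compared with MMTV-neu cells grown alone. The members are the 3 arrays of each of these groups, 6 of the 18 arrays in the series, chosen by their titles, and 19938 genes were compared between them. Comma-D is an immortal mouse mammary epithelial line that the labels call normal. MMTV-neu cells are the tumour line of the study, labelled as cancer, erbB2-positive and phospho-erbB2-positive. The co-culture fraction is labelled as redirected, erbB2-positive and phospho-erbB2-negative. Values of 4 other groups are given where they help to read the comparison: unmixed Comma-D cells and the erbB2-negative cells sorted at either ratio, labelled normal, and the erbB2-positive fraction of the 1:1 co-culture, labelled cancer.

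Cells had been detached with trypsin, stained with an antibody to erbB2 and separated on magnetic beads before total RNA was taken. MMTV-neu cells were grown in DMEM with 10% fetal bovine serum. Co-cultures were grown in the Comma-D medium, which is DMEM/F12 with 2% serum, 5 ng/ml EGF and 10 ug/ml insulin. Medium and co-culture therefore cannot be told apart in the comparison, and neither can Comma-D RNA in the sorted fraction and a change within MMTV-neu cells. Fewer cells of a type and less RNA per cell cannot be told apart in such bulk samples either. The titles do not say which line made up the 50 parts. No label says that the 3 arrays of a group came from separate cultures, so p-values measure only the spread between these samples, which may be technical.

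ERBB2 is a receptor tyrosine kinase of the EGF receptor family that has no ligand of its own and signals as a dimer with EGFR, ERBB3 or ERBB4. In MMTV-neu mice an activated or overexpressed rat homologue, neu, is driven in mammary epithelium and gives tumours of luminal character. The normal mammary duct has an inner luminal layer, which makes keratins 8 and 18 and uses transcription factors such as FOXA1, GATA3 and the oestrogen receptor. Its outer basal layer makes keratins 5 and 14, smooth muscle contractile proteins and the integrins that hold it to the basement membrane.

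The fraction labelled redirected was lower than the tumour line in Tbx2, Spdef and Esr1. At 2-fold or more it was lower in many, but not most, Hox genes, a share like that of endothelial markers. Keratin 8 stayed well above Comma-D in this fraction, as it did in the 1:1 erbB2-negative fraction. The redirected fraction was higher in basal keratins, many desmosome genes and some, but not most, integrins, cadherin and tight junction genes and collagens. Over all genes, 83.4% were called different (limma, Benjamini-Hochberg adjusted p under 0.05), 25.8% higher and 57.6% lower in the fraction. At 2-fold or more, 14.4% were higher and 10.8% were lower, and the 3 and 3 arrays did not overlap for 81.4% of genes. A call alone therefore says little about a gene list, and counts below are read at 2-fold beside these shares. All levels and differences are on the log2 scale, and a difference is the 1:50 erbB2-positive fraction minus MMTV-neu unless stated.

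The size and sign of a difference varied with the level of the gene. The lowest quartile of genes by mean over the 18 arrays had a median difference of -0.54, the second -0.77, the third -0.08 and the highest quartile 0.82. At 2-fold or more, 44.4% of the highest quartile were higher, against 0.68% of the second. The standard deviation of an array over all genes was 1.26 to 1.28 in MMTV-neu and 1.64 to 1.82 in the fraction. Of 1015 olfactory receptor genes, which mammary cells are not known to use, 951 were called lower with a median difference of -0.50, and 32 (3.15%) were lower at 2-fold or more. A difference of this size at levels near or below the array medians (6.38 to 6.51 in the fraction, 6.77 to 6.79 in MMTV-neu) thus also occurs in genes that are not known to be used, and background compresses low values on arrays. Replicate 1 had the smallest spread of the fraction's arrays. Correlations over genes between the fraction and MMTV-neu arrays ran from 0.77 to 0.84, against 0.97 to 0.99 between the fraction and Comma-D.

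**Figure D1:**
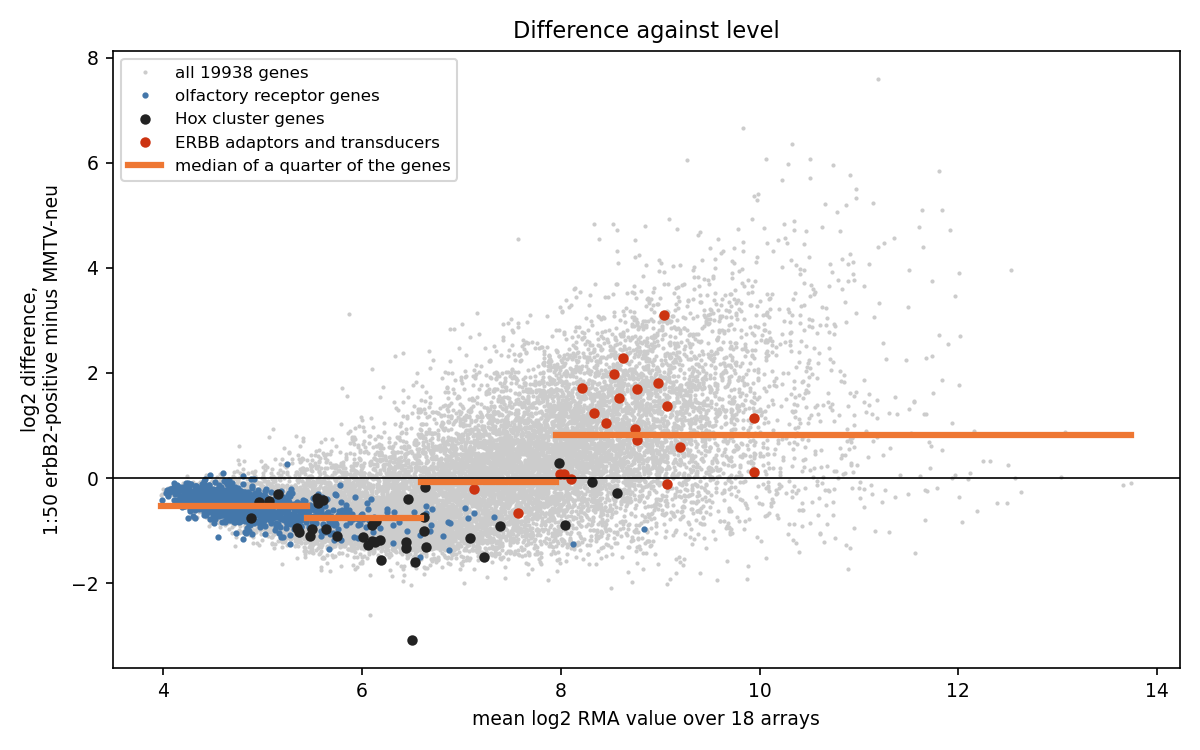
Log2 difference (1:50 erbB2-positive fraction minus MMTV-neu) of each gene against its mean log2 RMA value over 18 arrays, with orange bars at the median of each quartile of the genes. Differences go from a median of -0.54 in the lowest quartile to 0.82 in the highest, the olfactory receptor genes lie mostly below 0, and Hox genes and ERBB adaptors lie on opposite sides.

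Labelled cell types were first set against their defining markers. Krt8, a luminal keratin, read 11.22, 11.33 and 11.46 in MMTV-neu and 7.38, 7.70 and 7.15 in Comma-D. Epcam, an epithelial adhesion molecule, read 6.01, 5.93 and 5.70 in MMTV-neu, below those arrays' medians of 6.77 to 6.79, and 9.57, 9.56 and 9.45 in Comma-D. The tumour line was thus high in a luminal keratin and low in this general epithelial marker. Among markers of other cell types, 0 of 14 endothelial, 0 of 11 adipocyte and 1 of 19 macrophage and leukocyte genes were higher at 2-fold or more, and 6 (42.9%), 2 (18.2%) and 5 (26.3%) were lower, beside 10.8% of all genes. Called lower were 13, 10 and 17 of them, so genes at low levels were often lower in the fraction. Their mean level over the list stayed under 5.82 on each of its 3 arrays. Fibroblast markers were split, with 4 of 14 higher and 1 lower at 2-fold, and their part in the results was not tested.

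The receptor by which the cells were sorted was not called different in mRNA. Erbb2 read 8.14, 7.89 and 8.14 in MMTV-neu and 8.14, 8.16 and 8.36 in the fraction. The ranges did not overlap, though the highest MMTV-neu and the lowest fraction array both round to 8.14, and the difference was 0.17 ± 0.10 (SE, n = 3 and 3; limma adjusted p = 0.127; 95% interval -0.04 to 0.37). Comma-D arrays read 8.12 to 8.32 for the same probe set, so it did not separate the lines that the labels call erbB2-positive and erbB2-negative. The probe set is for the mouse gene, and whether it reads a rat neu transcript was not tested.

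Of the partner receptors of ERBB2, Egfr and Erbb3 were higher in the fraction. Egfr, the EGF receptor, read 6.53, 6.98 and 6.88 in MMTV-neu and 8.48, 8.86 and 8.04 in the fraction. No array overlapped, and the difference was 1.66 ± 0.22 (SE; limma adjusted p = 4.26e-06). Erbb3, the kinase-impaired partner that recruits PI3 kinase, read 7.54 to 7.81 in MMTV-neu and 8.32 to 8.99 in the fraction, a difference of 1.03 that became -0.15 when arrays were centred on reference genes. Both receptors stood near the Comma-D levels, with differences from Comma-D of 0.10 for Egfr and -0.08 for Erbb3 that were not called, beside 5.71% of all genes called in that comparison. In the 1:1 erbB2-positive fraction they were at MMTV-neu levels (6.88 for Egfr and 7.65 for Erbb3), and the difference between the fractions was called for both (1.58 and 1.08; limma adjusted p = 2.05e-05 and 6.54e-05), as it was for 71.4% of all genes.

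The neuregulins and Erbb4 went the other way at low levels. Nrg2 differed by -1.04, Nrg3 by -1.03 and Erbb4, a neuregulin receptor, by -0.92, each called. Nrg3 and Erbb4 were below the array medians in both groups, and the difference of Erbb4 was not called after quantile normalization. Ereg and Epgn, which encode EGF receptor ligands, were not called (0.11 and -0.18). Of the 14 receptors and ligands, 2 were higher and 2 lower at 2-fold or more, 14.3% each way, beside 14.4% and 10.8% of all genes.

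Adaptors carry the signal from the receptors inward. Of 21 measured, 14 were called higher and 1 lower, and 11 (52.4%) were higher at 2-fold or more; 19 of the 21 lie in the highest quartile by level, where 44.4% of genes were, so the share is near that of genes of like level. Pik3r1, the regulatory subunit of PI3 kinase, read 6.70, 6.59 and 6.75 in MMTV-neu and 9.65, 9.99 and 9.70 in the fraction. Its arrays are far apart, and the fraction was 8.60-fold higher (limma adjusted p = 9.47e-11). Shc1, an adaptor that links receptors to RAS, differed by 2.28, Pik3ca, the catalytic subunit, by 1.98, Gab1, a docking protein, by 1.80 and Sos2, a RAS exchange factor, by 1.71. Sos1 (0.07), Pik3r2 (0.08) and Gab2 (-0.03) were not called. The list's median of 1.04 became -0.14 when arrays were centred on reference genes.

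Feedback genes of the ERK pathway are transcribed when ERK is active and in turn restrain it. The list of 23 genes used here also holds transcription factors, Myc, Fosl1 and Etv5 among them. In the fraction 14 of 23 (60.9%) were higher and 1 was lower at 2-fold or more, with a median of 1.23 (0.05 centred on reference genes) and 15 of the 23 in the highest quartile by level. Dusp6, a cytoplasmic ERK phosphatase, read 5.94, 6.66 and 6.91 in MMTV-neu and 8.49, 9.05 and 8.59 in the fraction. The difference was 2.21 ± 0.19 (SE; limma adjusted p = 7.75e-08), yet the fraction stayed 1.88 below Comma-D, whose arrays read 10.53 to 10.65. Errfi1, an inhibitor of EGFR and ERBB2 kinases, had the same order, 2.13 above MMTV-neu and 1.34 below Comma-D. Dusp6 means in the 1:50 and 1:1 erbB2-negative fractions, 9.1 and 9.3, were also below Comma-D (10.6). Those of Errfi1 were 10.3 and 10.2, beside 11.4 in Comma-D. Over MMTV-neu, Dusp7, another cytoplasmic ERK phosphatase, was 3.81 higher in the 1:50 erbB2-positive fraction. Dusp1, a nuclear MAP kinase phosphatase, was 2.96 higher and Myc, a growth transcription factor, 1.81.

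Other members of that list did not move with them. Fosl1 (0.05), Etv5 (-0.19) and Spry1 (0.24) were not called between the fraction and MMTV-neu, and each was 1.17 to 1.23 below Comma-D. Their means in the erbB2-negative fraction of the 1:50 co-culture, 8.09, 7.42 and 8.32, were also below those of Comma-D (9.05, 8.32 and 9.26). Dusp5, a nuclear ERK phosphatase and the member lower at 2-fold, was picked out after its values were seen. It read 9.47, 9.22 and 9.66 in MMTV-neu and 8.04, 7.69 and 7.74 in the fraction, a fall of 3.09-fold (limma adjusted p = 4.92e-07). Relative to MMTV-neu the 1:1 erbB2-positive fraction differed by -0.45, and the difference between fractions was called (-1.18; limma adjusted p = 3.04e-05).

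The clearest losses can be read from genes chosen in other arrays. In the 1:1 co-culture, 9 genes (0.0451% of those tested) were higher at 2-fold or more in the erbB2-positive than in the erbB2-negative fraction. None of those arrays enters the means of the 1:50 fraction or MMTV-neu, but they share the fit's estimate of spread. Deviations of 1:1 erbB2-negative and 1:50 erbB2-positive arrays from their group means also went together by replicate number (correlations of 0.849, 0.646 and 0.57). The choice of the 9 genes is thus not fully independent of the 1:50 values. All 9 were lower in the 1:50 fraction at 2-fold or more, where 10.8% of all genes were, with a median of -1.56. They were Hoxc10 and Hoxc6, Mir421, the calcium channel subunit gene Cacng4, the ADP-ribose hydrolase gene Macrod2, the neuropeptide gene Pth2, the pentraxin gene Nptx2, the olfactory receptor gene Olfr767 and C2cd4a. Hoxc10 read 8.58, 8.75 and 8.91 in MMTV-neu and 6.20, 5.30 and 5.49 in the fraction. No array overlapped, and Hoxc10 was 8.45-fold lower (log2 difference -3.08 ± 0.23 SE; limma adjusted p = 1.26e-08). Comma-D arrays read 4.90 to 5.14, and the difference of the fraction from Comma-D was not called (0.62; limma adjusted p = 0.123).

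Replicate 1 of the fraction was the highest of its 3 arrays for each of these 9 genes. For Olfr767 the arrays read 8.57, 6.76 and 8.05, and its difference of -1.26 became -0.74 without replicate 2, still called. The 1:1 erbB2-positive arrays, whose high values chose the 9 genes, differed from MMTV-neu by -0.91 (Mir421) to 0.08 (Olfr767). Of these differences only that of Hoxc10 was called (-0.82; limma adjusted p = 0.0227), beside 18.3% of all genes. The mirror list, 1617 genes (8.11%) that were lower at 2-fold or more in the 1:1 erbB2-positive fraction, held 1585 genes that were higher at 2-fold or more in the 1:50 fraction than in MMTV-neu, with a median of 2.15. Of these 1617 genes, 1307 lie in the highest quartile by level.

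**Figure D2:**
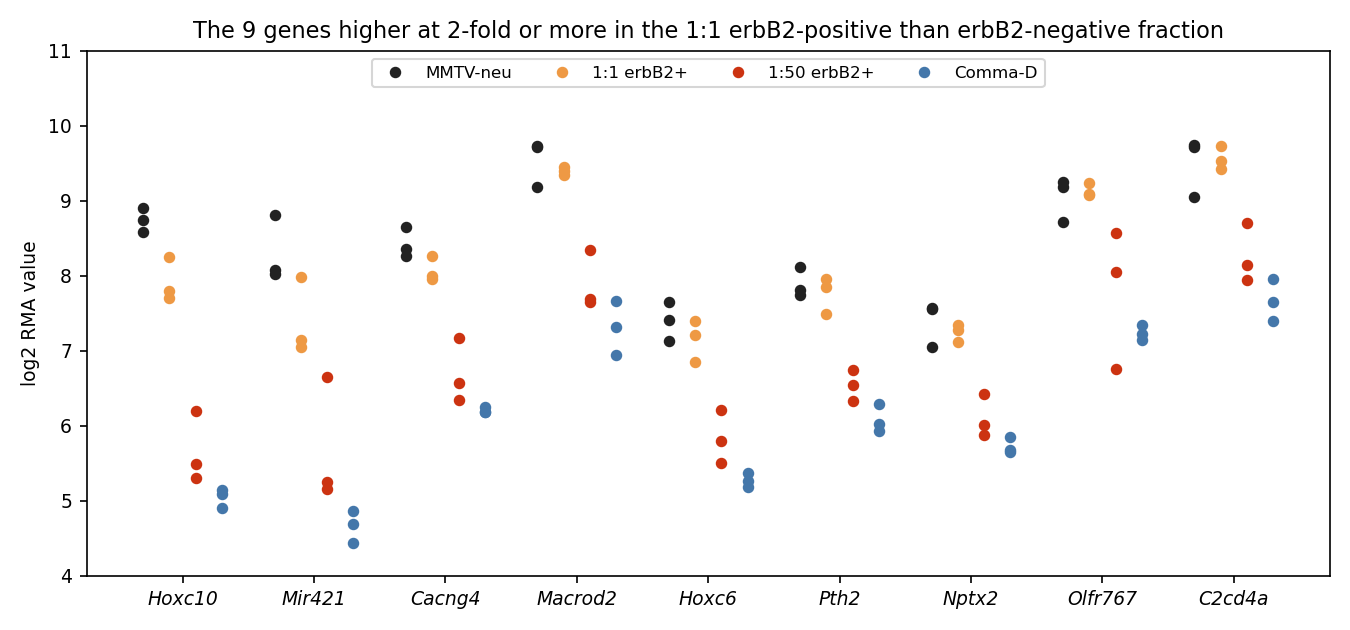
Log2 RMA values by array of the 9 genes that were higher at 2-fold or more in the 1:1 erbB2-positive than erbB2-negative fraction; each point is an array, 3 per group. The 1:1 erbB2-positive arrays lie below those of MMTV-neu for Hoxc10, Mir421 and Cacng4 and overlap them for the other 6, and the 1:50 erbB2-positive arrays lie lower, with a median difference from MMTV-neu of -1.56.

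Many Hox genes were lower in the fraction. They encode homeodomain factors that keep positional identity, and HOXC10 is a posterior member. Of 37 measured Hox genes, 34 were called lower and 0 higher. Also called lower were 57.6% of all genes, 13 of 14 endothelial markers and 951 of 1015 olfactory receptor genes. At 2-fold or more 17 Hox genes (45.9%) were lower, beside 10.8% of all genes and 22.7% of the second quartile by level, where 20 of the 37 lie. Endothelial markers, which these lines are not known to use, gave a like share, 6 of 14 (42.9%) with a median of -0.95, and 8 of the 14 lie in the second quartile. The Hox median was -0.97, and was -0.64 when arrays were centred on their medians and -2.15 centred on reference genes. Hoxc9 (-1.60), Hoxc6 (-1.56), Hoxb7 (-1.51) and Hoxa5 (-1.32) followed Hoxc10. The mean over the 37 genes was 6.86, 6.99 and 7.03 on the MMTV-neu arrays and 6.21, 5.92 and 6.00 on those of the fraction, with Comma-D at 5.82 to 5.88. Hoxb3 (-0.07) and Hoxb4 (-0.16) were not called, and Hoxb9 (-0.28) lost its call when any of 5 of the 6 arrays was left out. Between the fractions, 33 of the 37 were called lower in 1:50 than in 1:1, beside 44% of all genes and 12 of the 14 endothelial markers.

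Luminal transcription factors had members in both directions. Of 28, 7 (25%) were lower and 5 (17.9%) higher at 2-fold or more, beside 10.8% and 14.4% of all genes. The share of higher factors is thus near that of all genes. In the highest quartile by level, where 12 of the 28 lie, 44.4% of genes were higher and 3.59% lower. Tbx2, a T-box repressor that acts in mammary and limb patterning, read 9.20, 9.48 and 9.19 in MMTV-neu and 7.67, 6.94 and 7.44 in the fraction, a difference of -1.94. Foxa1, a pioneer factor that opens oestrogen receptor sites, read 9.82, 10.18 and 10.31 against 8.77, 8.12 and 8.07. Its fall was 3.45-fold (limma adjusted p = 1.86e-06), and the fraction stayed 0.94 above Comma-D (limma adjusted p = 0.0154). Esr1, the oestrogen receptor, read 8.49, 7.96 and 8.02 against 7.37, 6.79 and 6.98, a difference of -1.11 that left it at the Comma-D level of 7.12. Spdef, an ETS factor of secretory luminal cells, differed by -1.43 and Cited1, a luminal transcriptional co-activator, by -1.17; both were chosen after their values were seen.

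Other factors of the list rose. Runx1, which acts in both mammary layers, read 8.94, 8.69 and 8.41 in MMTV-neu and 11.46, 11.84 and 11.45 in the fraction. Sox9, a factor of mammary stem and luminal progenitor cells, was 2.63 higher, Tfap2b, an AP-2 factor, 2.54 and Ehf, an epithelial ETS factor, 2.42. None of these 4 was called between the fraction and Comma-D. Gata3, the regulator of luminal fate, was 1.53-fold higher (0.61), but -0.56 when arrays were centred on reference genes, and not called after quantile normalization (-0.27). Grhl2 (0.09; 95% interval -0.25 to 0.42), Pgr (-0.10) and Esrp2 (0.21) were not called.

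**Figure D3:**
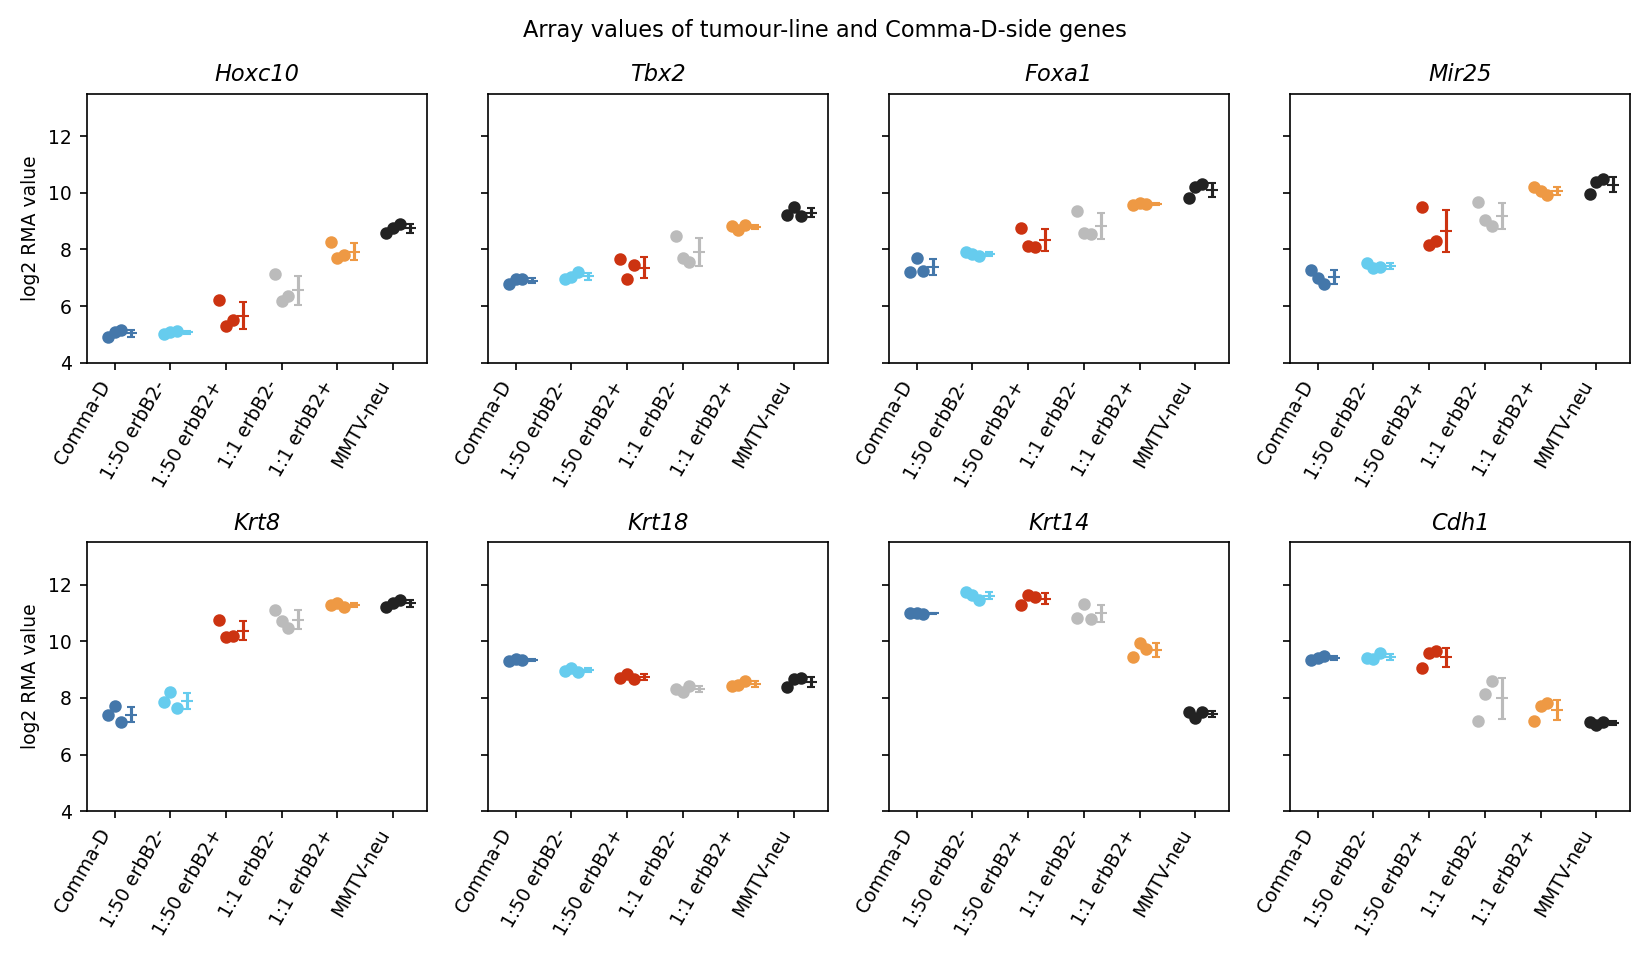
Log2 RMA values by array of 8 genes in the 6 groups, with 3 points per group and the mean ± SD beside them. In the 1:50 erbB2-positive fraction Hoxc10, Tbx2 and Foxa1 sit low between the lines, Mir25 lies about midway, Krt8 lies close to MMTV-neu at 10.16 to 10.76, and Krt14 and Cdh1 lie near or above their Comma-D levels.

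Keratin 8 stayed high in the fraction. Krt8 read 10.76, 10.16 and 10.19 in the fraction and 11.22, 11.33 and 11.46 in MMTV-neu. The groups did not overlap, and the fall was 1.96-fold (log2 difference -0.97 ± 0.19 SE; limma adjusted p = 1.93e-04). The fraction was 2.96 above Comma-D (limma adjusted p = 5.05e-08), the largest of the 20 genes (0.1% of those tested) that were higher than Comma-D at 2-fold or more. The erbB2-negative fraction of the same co-culture read 7.85, 8.20 and 7.65, close to Comma-D. That of the 1:1 co-culture, also labelled normal, read 11.12, 10.70 and 10.46. A high Krt8 was thus not particular to fractions labelled erbB2-positive. On a linear scale from Comma-D (0%) to MMTV-neu (100%), the 1:50 erbB2-positive fraction stood at 48.5% for Krt8, 27.6% for Mir25, 16.8% for Foxa1, 9.47% for Tbx2 and 4.95% for Hoxc10. These positions are descriptions with no test of their differences. Krt18, the partner of keratin 8 in luminal filaments, was not called (0.17; 95% interval -0.05 to 0.38), with 8.37 to 8.69 in MMTV-neu, 8.68 to 8.86 in the fraction and 9.31 to 9.37 in Comma-D.

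Other genes above Comma-D followed different patterns across the groups, and they were chosen after their values were seen. Dock6, a RAC and CDC42 exchange factor, stood at 8.97 in the fraction, between 7.92 in Comma-D and 10.57 in MMTV-neu, and at 8.06 in the erbB2-negative fraction, an order like that of Krt8. C1qtnf3, a secreted C1q-domain protein, stood at 7.82 beside 8.07 in MMTV-neu and 6.37 in Comma-D, and its difference from MMTV-neu was not called (-0.25; limma adjusted p = 0.364; -0.56 and called without replicate 2). Igfbp3, an IGF-binding protein, stood at 7.85 beside 7.55 and 6.49, and was not called either (0.29; limma adjusted p = 0.12; 0.52 and called without replicate 1). In the erbB2-negative fraction of the same co-culture C1qtnf3 stood at 7.91 and Igfbp3 at 7.77, so both were as high there, unlike Krt8.

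Luminal surface and secreted markers did not move as a group. Of 21, 6 (28.6%) were higher and 2 (9.52%) lower at 2-fold or more, with a median of -0.08 that became 0.25 when arrays were centred on their medians. Wfdc18, a whey acidic protein family gene, was 5.40 higher, Cd24a, a surface sialoglycoprotein, 5.21, and Lcn2, lipocalin 2, 4.93. Epcam was 3.16 higher and Kit, the receptor of luminal progenitors, 1.55. The 2 that were lower at 2-fold were Stard10, a phospholipid transfer protein (-1.26), and Cldn3, a tight junction claudin (-1.04), both picked after their values were seen. Sorl1 (0.05) and Cldn4 (-0.08) were not called.

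MicroRNA hairpin genes gave a small set with clear falls on a background of low values. The probes read the hairpin or its primary transcript, not the mature strand. Of 300 measured, 253 were called lower, beside 57.6% of all genes and 951 of 1015 olfactory receptor genes. The list's median was -0.53, beside -0.54 for the lowest quartile of all genes, where 175 of the 300 lie. At 2-fold or more 59 (19.7%) were lower and 3 (1%) higher, beside 10.8% and 14.4% of all genes. In the lowest and second quartiles by level, 3.91% and 22.7% of genes were lower at 2-fold or more. Of the 300, 271 matched the RefSeq microRNA table (GRCm38.p6). The following strands are shown because their hairpin genes fell at 2-fold or more and because 4 of them share seeds in pairs; capitals mark the seed, bases 2 to 8, which pairs with targets.
mmu-miR-106b-5p: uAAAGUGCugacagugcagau
mmu-miR-93-5p: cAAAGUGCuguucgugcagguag
mmu-miR-25-3p: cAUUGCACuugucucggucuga
mmu-miR-32-5p: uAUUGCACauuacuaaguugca
mmu-miR-421-5p: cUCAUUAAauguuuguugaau

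The first 3 come from a single cluster on the minus strand of chromosome 5. In GRCm38.p6 the mature miR-25-3p lies at chr5:138165332-138165353, miR-93-5p at chr5:138165574-138165596 and miR-106b-5p at chr5:138165787-138165807. The cluster is carried by the host gene Mcm7, a subunit of the replicative helicase. Mir106b, Mir93 and Mir25 were chosen after their values were seen, and Mir32 and Mir421 by the size of their differences. Mir25 read 9.97, 10.39 and 10.48 in MMTV-neu and 9.50, 8.17 and 8.29 in the fraction. The difference was -1.63 ± 0.28 (SE; limma adjusted p = 5.12e-05), and replicate 1 lay more than 1 unit above the other two. Mir106b differed by -1.71 and Mir93 by -1.57, so the 3 hairpins of the cluster fell by like amounts, while Mcm7 itself was not called (0.55; limma adjusted p = 0.0639). Mcm7 was called at 0.70 without replicate 2 of the fraction and at 0.73 without replicate 3 of MMTV-neu.

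Genes that share a seed were called lower about as often as hairpin genes in general. All 6 measured genes with a strand of seed AUUGCAC were called lower, led by Mir32 (-1.75), Mir25, Mir92b (-1.13) and Mir92-2; Mir363 (-0.26) and Mir367 (-0.23) were near the floor in all groups. Of 6 with seed AAAGUGC, 5 were called lower, beside 253 of the 300 hairpin genes, and Mir17 was not (-0.20). Mir421 read 8.80, 8.03 and 8.07 in MMTV-neu and 6.64, 5.25 and 5.16 in the fraction, a difference of -2.62. Mir140 (2.32) and Mir568 (2.41) were among the 3 that were higher at 2-fold. Mir200b, of an epithelial microRNA family that represses ZEB factors, was not called (-0.03).

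Histone genes, collagens and connexins had members in both directions. Of 37 histone genes 10 (27%) were lower and 4 (10.8%) higher at 2-fold or more. H4c3 differed by -2.10, H2bc9 by -1.52 and H2bc14 by -1.43, the last chosen after its values were seen, while H2bc4 was 4.84 and H1f2 2.21 higher. Of 44 collagens 15 (34.1%) were lower and 5 (11.4%) higher at 2-fold or more. The higher ones were the fibril-associated Col12a1 (3.99), the short-chain Col8a1 (2.99), Col17a1 (2.73), the transmembrane collagen of hemidesmosomes, Col6a1 (2.35) and the fibrillar Col5a2 (1.41). The basement membrane collagens Col4a1 (0.10) and Col4a5 (-0.09) were not called. Of 15 connexins 13 were called lower, beside 57.6% of all genes, and 4 (26.7%) were lower at 2-fold or more, with 12 of the 15 in the lowest 2 quartiles by level. The 1 that was higher was Gja1, connexin 43, the gap junction protein of basal cells and fibroblasts, which read 7.12, 6.90 and 6.15 in MMTV-neu and 9.86, 10.30 and 9.54 in the fraction.

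Other genes with the largest falls had varied functions. Prdm6, a chromatin repressor, differed by -2.04, Efna3, an ephrin ligand, by -2.01, Ppp2r2c, a PP2A subunit, by -2.01, Kcng1, a potassium channel subunit, by -1.98, Nr2f1, an orphan nuclear receptor, by -1.95 and Parp6, an ADP-ribosyltransferase, by -1.92. In each of these 6, the 3 arrays of the fraction lay below the 3 of MMTV-neu, and none was called between the fraction and Comma-D. Ppp2r5c (-1.94) is read by 4 probe sets that disagree, since their mean gave 0.37.

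The largest rises were in mitochondrially encoded and Comma-D-side genes. COX2, a respiratory chain subunit encoded in the mitochondrion and used by every cell with one, read 5.46, 4.71 and 4.97 in MMTV-neu and 12.7, 12.6 and 12.6 in the fraction, and ND3, another, 5.09, 4.53 and 4.72 against 11.3, 11.6 and 11.4. Both were below the array medians in MMTV-neu and stood at 12.4 and 11.3 in Comma-D. These values, like the narrow spread of the MMTV-neu arrays, move with the lists that were higher in the fraction, and their part in those results was not tested. Brinp3 (6.36), the lysosomal membrane protein gene Cd63 (6.07), Prdx2, a peroxidase (6.05), Ifitm3, an interferon-induced membrane protein (5.95), and Plp2 (5.67) were also among the 12 highest, with B2m, Xist, Fn1, Postn and Scd1.

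Most basal and mesenchymal genes were higher in the fraction. Krt14, a basal keratin, read 7.48, 7.29 and 7.52 in MMTV-neu and 11.28, 11.64 and 11.56 in the fraction, which is 16.7-fold higher (limma adjusted p = 1.81e-12). Krt5, its partner, was 3.43 higher than MMTV-neu and also 1.37 higher than Comma-D (limma adjusted p = 0.00414), and read 11.30 in the erbB2-negative fraction of the same co-culture. Of 29 basal markers 20 (69%) and of 24 mesenchymal transition genes 17 (70.8%) were higher at 2-fold or more; 22 of the 29 and 19 of the 24 lie in the highest quartile by level, where 44.4% of genes were. Postn, a matricellular protein, was 5.76 higher and Vim, vimentin, 4.72.

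Junction genes were split, apart from the desmosome. Cdh1, E-cadherin, read 7.15, 7.04 and 7.16 in MMTV-neu and 9.05, 9.60 and 9.67 in the fraction. That is 5.00-fold higher (limma adjusted p = 8.71e-07), and 0.03 from Comma-D. Ctnnd1, p120 catenin, was 3.03 higher, Ctnnb1, beta-catenin, 2.39, F11r, junctional adhesion molecule A, 2.48 and Cldn12, a claudin, 1.66. Across 24 cadherin and tight junction genes 9 were called higher and 11 lower, and 8 (33.3%) were higher and 2 (8.33%) lower at 2-fold or more, with Llgl2 (0.03), Cldn4 and Ctnna1 (0.08) not called, and the list's median of -0.02 became 0.31 with arrays centred on their medians. Of 13 desmosome genes 7 (53.8%) were higher and 0 lower at 2-fold or more, beside 14.4% and 10.8% of all genes. Their median was 1.05 (-0.12 centred on reference genes). By level, 7 of the 13 lie in the highest quartile, where 44.4% of genes were higher, and 4 in the third, where 12.5% were. Dsg3, a desmosomal cadherin of stratified epithelium, read 5.27, 5.62 and 5.31 against 9.48, 10.55 and 9.81, and Perp (4.12), Jup, plakoglobin (3.16), Dsp, desmoplakin (1.78) and Pkp1, plakophilin 1 (1.71) were also higher. Dsc2 (0.10) and Pkp3 (-0.19) were not called.

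Several integrins rose, some that bind the basement membrane among them. Itga6, the laminin-binding alpha 6 subunit, read 6.12, 6.57 and 6.91 in MMTV-neu and 10.04, 10.63 and 9.97 in the fraction. Its partners Itgb1 (4.13) and Itgb4 (2.37) were higher too, and Itgb4, the hemidesmosomal subunit, also stood 0.92 above Comma-D (limma adjusted p = 0.00356). The erbB2-negative fraction of the same co-culture read 10.45, 10.32 and 10.03 for Itgb4, beside 10.15, 10.78 and 10.48 in the erbB2-positive fraction. Itgb5 (3.18) and Itga5 (2.88), which bind vitronectin and fibronectin, were higher. Of 26 integrin genes 8 (30.8%) were higher and 3 (11.5%) lower at 2-fold or more; the median of -0.50 became 0.90 when the lowest 40% of genes were left out.

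**Figure D4:**
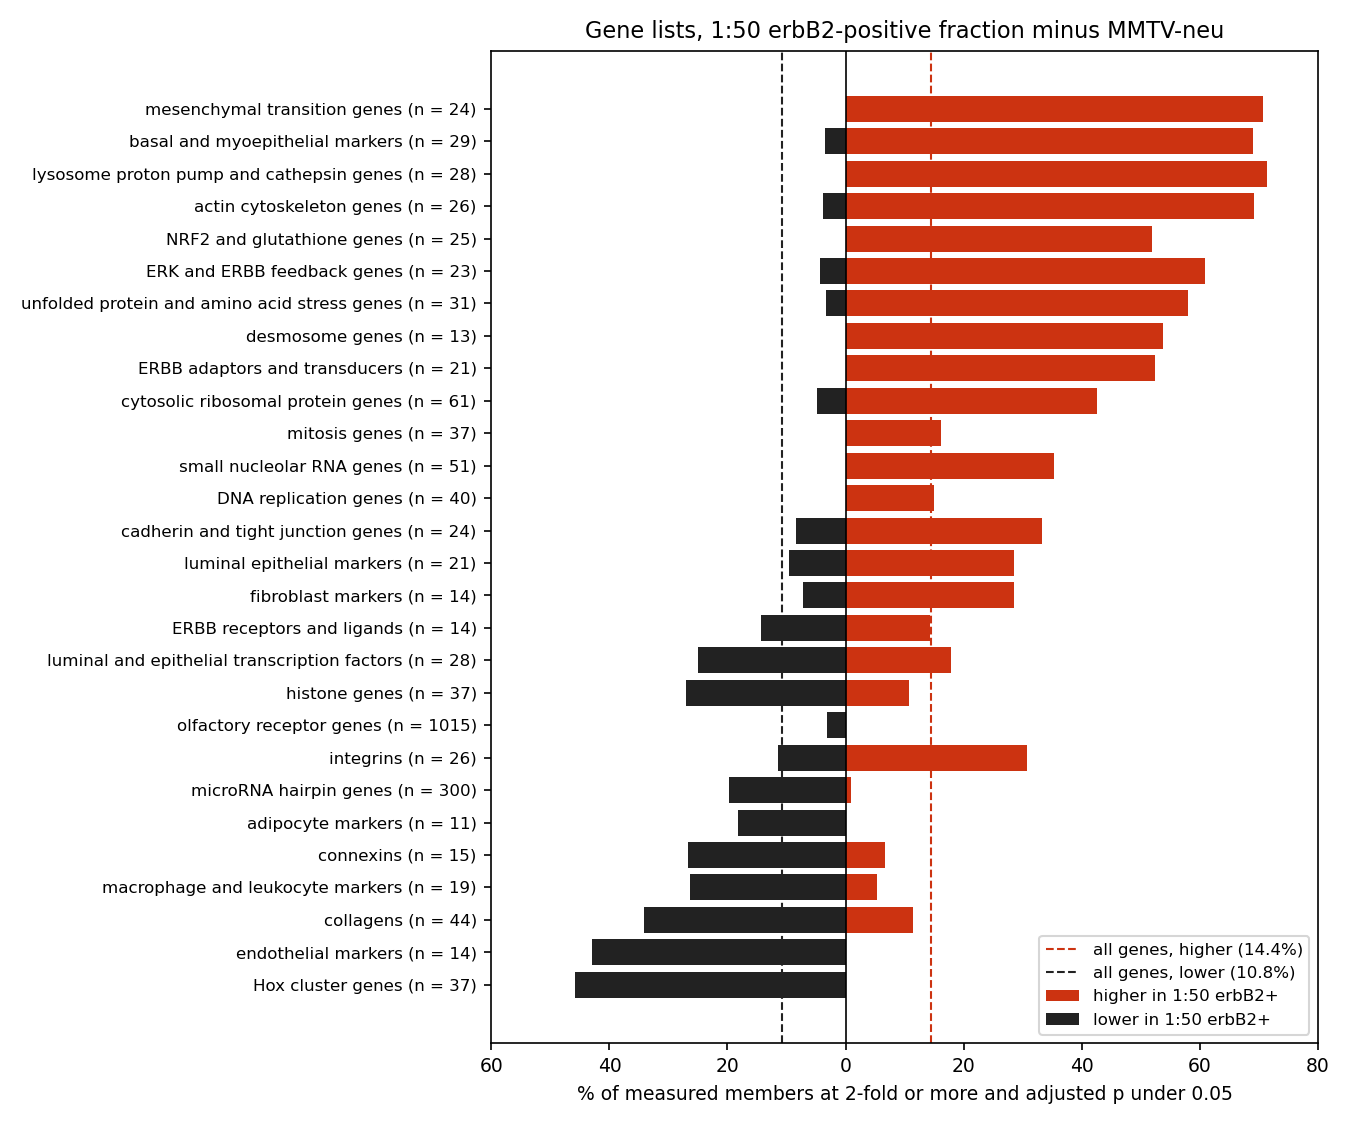
Share (%) of the measured members of each gene list that were higher (red, right) or lower (black, left) in the 1:50 erbB2-positive fraction than in MMTV-neu at 2-fold or more and limma adjusted p under 0.05, with n in brackets. Dashed lines mark all genes, 14.4% higher and 10.8% lower; the lists are ordered by their median difference, with Hox genes (45.9% lower) at the bottom and mesenchymal genes (70.8% higher) at the top.

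Many genes of protein folding, lysosome and cytoskeleton, most of them in the highest quartile by level, were higher. Of 31 genes of the unfolded protein and amino acid stress responses 18 (58.1%) were higher and 1 lower at 2-fold or more, with a median of 1.10 (-0.08 centred on reference genes), and 27 of the 31 lie in the highest quartile by level. Hspa5, the chaperone BiP, read 8.27, 8.52 and 8.76 in MMTV-neu and 11.15, 11.36 and 11.81 in the fraction. It was 7.60-fold higher (limma adjusted p = 1.25e-07). The amino acid transporter subunit gene Slc3a2 was 4.08 higher, Asns, asparagine synthetase, 3.68, Dnajb9, a co-chaperone of BiP, 2.82 and Psat1, an enzyme of serine synthesis, 2.45, while Manf, a secreted stress protein, was not called (0.02).

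The 250 bases before the start of Hspa5 are shown because this promoter holds the ER stress element, which ATF6 is known to use with NF-Y. In RefSeq GRCm38.p6, at chr2:34771840-34772089 on the plus strand, capitals mark the element, CCAAT and CCACG with 9 bases between them.
Hspa5: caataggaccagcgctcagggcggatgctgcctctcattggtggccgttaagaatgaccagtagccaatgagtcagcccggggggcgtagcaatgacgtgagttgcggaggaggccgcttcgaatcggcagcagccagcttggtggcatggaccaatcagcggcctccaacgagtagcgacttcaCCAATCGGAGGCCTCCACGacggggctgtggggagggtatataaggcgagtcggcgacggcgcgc
Searched on both strands of promoters of 300 bases, the element stood in 6 of the 28 genes of the list that have a promoter in the table (21.4%) and in 21 of 15614 genes tested (0.134%). The list was made of genes of these stress responses, so a high share of the element in it was to be foreseen. The 6 were Hspa5, Hsp90b1 (2.21), Calr (1.56), Dnajc3 (1.72), Pdia6 (1.76) and Creld2 (0.93). All were called higher in the fraction, but so were 25 of the 31 genes of the list, beside 25.8% of all genes. Of the 31, 27 lie in the highest quartile by level. Values of the other genes with the element are not given. A match is a description and does not show that the element was in use.

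Of 28 lysosome genes 20 (71.4%) were higher and 0 lower at 2-fold or more, 22 of the 28 in the highest quartile by level. Lamp2, a lysosomal membrane protein, was 5.36 higher, Ctsd, cathepsin D, 5.24, Psap, prosaposin, 5.20 and Ctsb, cathepsin B, 4.75. Ctsk, the osteoclast cathepsin, was called lower (-0.34) at a level below the array medians. All 26 actin cytoskeleton genes lie in the highest quartile, and 18 (69.2%) were higher at 2-fold or more, among them Actb, cytoplasmic beta-actin (3.95). Of 25 NRF2 and glutathione genes 13 (52%) and of 61 cytosolic ribosomal protein genes 26 (42.6%) were higher at 2-fold or more, with 18 and 53 of them in the highest quartile, so neither share stands far from the 44.4% there. The median of the ribosomal genes, 0.85, became -0.32 with arrays centred on reference genes.

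Of 51 small nucleolar RNA genes 5 were called higher in the fraction than in Comma-D, beside 5.71% of all genes called there in either direction, and 3 of them are given here. Snora20, which guides pseudouridylation of ribosomal RNA, read 7.90, 8.81 and 7.64 in the fraction, 5.12, 4.84 and 5.04 in MMTV-neu and 6.00, 5.74 and 6.32 in Comma-D. It lay above both lines on every array, by 3.12 over MMTV-neu (limma adjusted p = 8.67e-09) and 2.10 over Comma-D (limma adjusted p = 2.25e-05). The erbB2-negative fraction of the same co-culture read 5.80, 5.52 and 5.69, and the 1:1 erbB2-positive fraction 5.13, 5.11 and 4.75, from which the 1:50 fraction differed by 3.12 (limma adjusted p = 1.92e-07). Snora73a and Snora44 were chosen after their values were seen. Snora73a, at 8.76, 9.05 and 9.47 in the fraction, was 1.11 above MMTV-neu and 1.03 above Comma-D. Snora44 was 1.36 and 1.34 above them, but replicate 3 of the erbB2-negative fraction, at 7.54, lay within its range of 7.31 to 8.50. Of the 51 genes 18 (35.3%) were higher and 0 lower at 2-fold or more than in MMTV-neu.

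Cell division genes varied widely among the arrays of the fraction. Their mean over 37 mitosis genes was 7.15, 7.14 and 8.20 in the fraction and 7.04, 6.89 and 6.94 in MMTV-neu. Replicate 3 stood about 1 unit above the other arrays of the fraction, and replicate 3 of the erbB2-negative fraction of the 1:50 co-culture (8.62) was also the highest of its group. The same held in the 1:1 co-culture, with 6.85, 7.52 and 8.25 in the erbB2-negative and 6.84, 6.98 and 7.21 in the erbB2-positive fraction. Comma-D arrays read 7.61 to 7.68. At 2-fold or more 6 of 37 (16.2%) were higher and 0 lower, beside 14.4% of all genes, and 28 were not called. Ccna2, cyclin A2, read 6.99, 6.96 and 7.07 in MMTV-neu and 8.99, 9.16 and 10.39 in the fraction, and Mki67, the Ki-67 antigen, 7.46, 6.86 and 7.25 against 8.31, 8.57 and 9.84. Both were called (2.51 and 1.72), as were the spindle checkpoint gene Mad2l1 (3.38) and the cytokinesis genes Anln (1.95) and Ect2 (1.12; 0.74 and not called without replicate 3).

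The absence of a call in this list is not evidence of equal levels. The median standard error was 0.36 for mitosis genes, against 0.14 for all genes, and the 95% interval lay within 1 log2 unit of 0 for 14 of the 37. Cdc20, an activator of the anaphase-promoting complex, had an interval of -0.73 to 0.69, and Cenpf, a kinetochore protein, of -0.67 to 0.65. DNA replication genes had 6 of 40 (15%) higher and 0 lower at 2-fold or more, with a median of 0.09 that became -0.15 without replicate 3 of the fraction. Pcna, the sliding clamp, was 2.53 and Rrm1, a ribonucleotide reductase subunit, 1.67 higher.

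**Figure D5:**
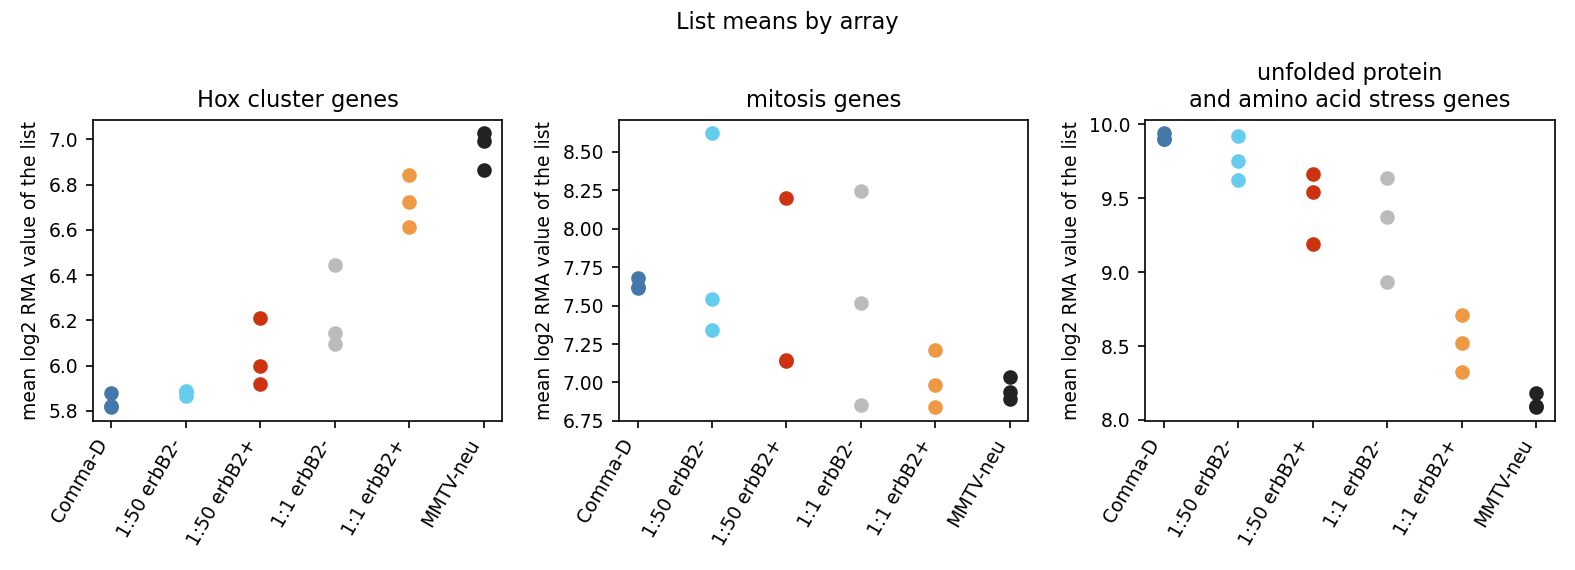
Mean log2 RMA value of 3 gene lists on each array, 3 points per group in 6 groups; the vertical axes differ in range and do not start at 0. The 1:50 erbB2-positive arrays lie at 5.92 to 6.21 for Hox genes beside 6.86 to 7.03 in MMTV-neu, at 7.14 to 8.20 for mitosis genes, with 1 array above the other 2, and at 9.19 to 9.66 for stress genes beside 8.08 to 8.18.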

How the data were processed

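RNA of 18 samples, 3 in each of 6 groups, had been hybridised to mouse gene arrays, and groups were taken from the sample titles. The authors deposited log2 values, and the submitters' processing notes name RMA, R 3.1.2 and limma. Any filter they used is not stated. Of 35556 probe sets, 21789 name a single gene and 12146 are not listed in the annotation. For each of 19938 genes the brightest single-gene probe set, by mean over the series, was used, and low values were not filtered. The number of arrays alone limits the precision that can be stated.

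Groups were compared with limma 3.58.1 (lmFit, eBayes; R 4.3.3) in a fit of all 18 arrays with 12 residual degrees of freedom, two-sided, with Benjamini-Hochberg adjustment over all genes. A gene was called at an adjusted p under 0.05, and at 2-fold or more where the log2 difference was also at least 1. The script was tested on simulated data. Genes could be named from the 12 highest and 12 lowest called genes whose arrays do not overlap, the 5 largest and 3 smallest differences of a list, and some fixed genes; not all of these are described, and others are said to be chosen after their values were seen. The members, lists and tests were chosen with earlier results of these data known. Alternatives covered scaling, filter, probe sets, priors, weights, threshold, replicate block and left-out arrays. Of 11 reference genes 9 were measured, and their mean rose by 1.18 in the fraction.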

Additional observations from a re-analysis of the deposited data

Results flagged for a closer look

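The fractions departed from MMTV-neu in opposite directions for 23 genes: each was called in both fractions, with a called difference between the 1:50 and 1:1 erbB2-positive fractions (limma, adjusted p under 0.05). The largest were Rpl12, a ribosomal protein gene, with 1.49 between the fractions (0.86 above MMTV-neu in 1:50 and -0.63 in 1:1), Zfp750, an epidermal differentiation factor, with 1.28 (0.74 and -0.53), and Lhfpl2 with 1.23 (0.50 and -0.73). Both departures share the MMTV-neu arrays. Of the 12146 probe sets without annotation, 1519 were higher at 2-fold or more in the 1:50 erbB2-positive fraction than in MMTV-neu, and they were used in no comparison.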

How the results depend on the processing

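The count of called genes, 16621, was 9102 with the lowest 40% of genes left out. Genes higher at 2-fold or more, 2870, were 845 with arrays centred on reference genes. Genes lower, 2161, were 1380 with the lowest 40% left out, 14044 centred on reference genes and 335 centred on array medians. The share of calls that were higher, 30.9%, was 54.5% with the lowest 40% left out, 9.18% centred on reference genes, 48.6% centred on array medians and 40.9% after quantile normalization. The median over all genes, -0.40, was -1.57, -0.06 and -0.10 under the last 3 scalings. The list of genes higher in the 1:1 erbB2-positive fraction was chosen anew under each scaling. Its median, -1.56 for the 9 genes of the main fit, was -2.05 centred on reference genes and -2.51 on array medians. Those lists differ from the 9 genes, so the values do not show how the 9 genes moved with scaling. Leaving out each array gave 15683 to 16598 called, 2644 to 3213 higher and 1556 to 2957 lower genes, and medians of -1.74 to -1.39 and 2.03 to 2.30 for the lists from the 1:1 co-culture. Replicate numbers did not pair the compared arrays (correlations of -0.08, -0.08 and 0.0018), and a replicate block gave 16791 calls, 2871 higher and 2161 lower. Between the 1:50 and 1:1 erbB2-positive fractions, arrays of the same number did go together (correlations of 0.515, 0.148 and 0.31). So did the erbB2-positive and erbB2-negative fractions of the 1:50 co-culture (0.342, 0.307 and 0.702). The main fit was unpaired, so its p-values between fractions do not allow for this.

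List medians changed sign as follows. Centred on reference genes they were -0.14 for ERBB adaptors, -0.12 for desmosome, -0.081 for stress, -0.73 for mitosis, -1.09 for DNA replication, -0.32 for ribosomal and -0.77 for small nucleolar RNA genes. With the lowest 40% left out they were 0.17 for luminal markers, 0.11 for ERBB receptors and ligands, 0.079 for cadherin and tight junction genes, 0.90 for integrins, 0.61 for leukocyte and 0.87 for fibroblast markers. Centred on array medians they were 0.25 for luminal markers, 0.31 for cadherin and tight junction genes and 0.013 for fibroblast markers. With array weights luminal markers gave 0.089 and cadherin and tight junction genes 0.091. Leaving out each array gave -0.20 to 0.053 for luminal markers, -0.092 to 0.095 for cadherin and tight junction genes and -0.15 to 0.19 for DNA replication genes. Among 163 genes checked singly, Gata3 reversed to -0.56 centred on reference genes and Ppp2r5c to 0.37 with the mean of its probe sets. The causes were not tested. Differences at levels below the array medians also occur in unused genes.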
